A study of Mus musculus with 6 samples.

Results

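Respiratory complex I is the NADH dehydrogenase of the mitochondrial electron transport chain, and most of its genes in the nuclear genome carry symbols that begin with Nduf. All rows of the count table with such a symbol were taken, without those marked -ps as pseudogenes. The rule gave 45 of 48587 genes, of which 7 encode core subunits, 29 accessory subunits and 7 assembly factors. The remaining pair is Ndufa4, which carries a complex I name but is now counted with complex IV, and its paralog Ndufa4l2. A total of 44 members were tested, and Ndufa4l2 had 0 reads in all 6 libraries.

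The libraries were made from microglia, the resident macrophages of the brain, at postnatal day 42. The cells came from C57BL/6 mice, 3 samples of wild type and 3 labelled Lyl1 KO, a knockout of the basic helix-loop-helix transcription factor Lyl1. About 1000 sorted cells went into each sample, and the labels give neither the sorting gate, the knockout allele nor the sex. They also do not say that samples came from separate animals, so every p-value covers only how these samples varied, and that variation may be technical.

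Complex I takes electrons from NADH, passes them along a flavin and a chain of iron-sulfur clusters to ubiquinone, and pumps protons across the inner membrane. The matrix arm holds the N module, which oxidises NADH, and the Q module, which reduces ubiquinone, while the proximal and distal parts of the membrane arm hold the pumps. Core subunits do the catalysis and are shared with bacteria, and the hydrophobic ones are encoded by the mitochondrial genome. Accessory subunits surround this core, stabilise it and help it assemble. Assembly factors act on intermediates and are not part of the finished enzyme. Microglia use oxidative phosphorylation in the resting state and shift toward glycolysis on activation.

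Total counts ran from 12753945 to 27378614 per library and detected genes from 12827 to 15652. Lyl1 was at 60.2, 55.6 and 40.0 CPM (counts relative to the library total, scaled by TMM) in wild-type samples 1 to 3 against 9.03, 12.0 and 14.3 CPM in the knockout ones, so every knockout library was lower and none was without reads. The 8 microglia markers summed to between 49955 and 56553 CPM in every library. Of 6 neuronal markers Snap25 and Gad1 had 0 reads everywhere, and their sum ran from 0.00 to 0.793 CPM in wild type and from 0.278 to 7.62 CPM in knockout. The 5 astrocyte markers, with Gfap at 0 reads everywhere, stayed at or below 1.94 CPM in sum. Oligodendrocyte markers, carried by Mbp and Mag with Mobp at 0, summed to 40.8 to 225 CPM in the wild type against 51.9 to 92.8 in knockout. Endothelial markers, carried by Pecam1 with Cldn5 at 0, summed to 26.1 to 154 and 27.2 to 61.6 CPM, border macrophage markers to 0.437 to 95.8 and 0.254 to 10.2 CPM, and lymphocyte markers, with Cd3e at 0, to at most 1.38 CPM. The part of these other cells in the results was not tested. Among the genes tested in the whole table edgeR called 0 of 10394 (0.0%) at an adjusted p under 0.05. Lyl1 itself was thus not called (log2 fold change -2.14, standard error 0.98, edgeR unadjusted p = 0.0609, adjusted p = 0.9999). A gene without a call may therefore still differ.

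Most complex I subunits had lower means in knockout microglia, and none passed the test. Of 44 tested members 35 had a log2 fold change below 0 and 9 above, where 51.3% of all tested genes were below 0 and 48.7% above. Their median log2 fold change was -0.53, beside -0.03 over all tested genes. edgeR's quasi-likelihood test called 0 members in either direction (adjusted p = 0.9999 for each), and DESeq2 also called 0 members among its 52 calls. At an unadjusted p under 0.05 there was 1 member lower, Ndufc1, and 0 higher, where 1.67% of tested genes were lower and 1.16% higher at that level.

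By group, accessory subunits had 26 of 29 below 0 (median log2 fold change -0.56), core subunits 5 of 7 (median -0.09) and assembly factors 3 of 7 (median 0.05). The difference between these groups was not tested. Genotypes did not overlap for 6 members, all lower in knockout and all accessory subunits, where 5.19% of tested genes were lower without overlap. No member was higher without overlap, where 5.97% of tested genes were. In bulk libraries fewer cells of a type and less RNA per cell cannot be told apart.

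**Figure D1:**
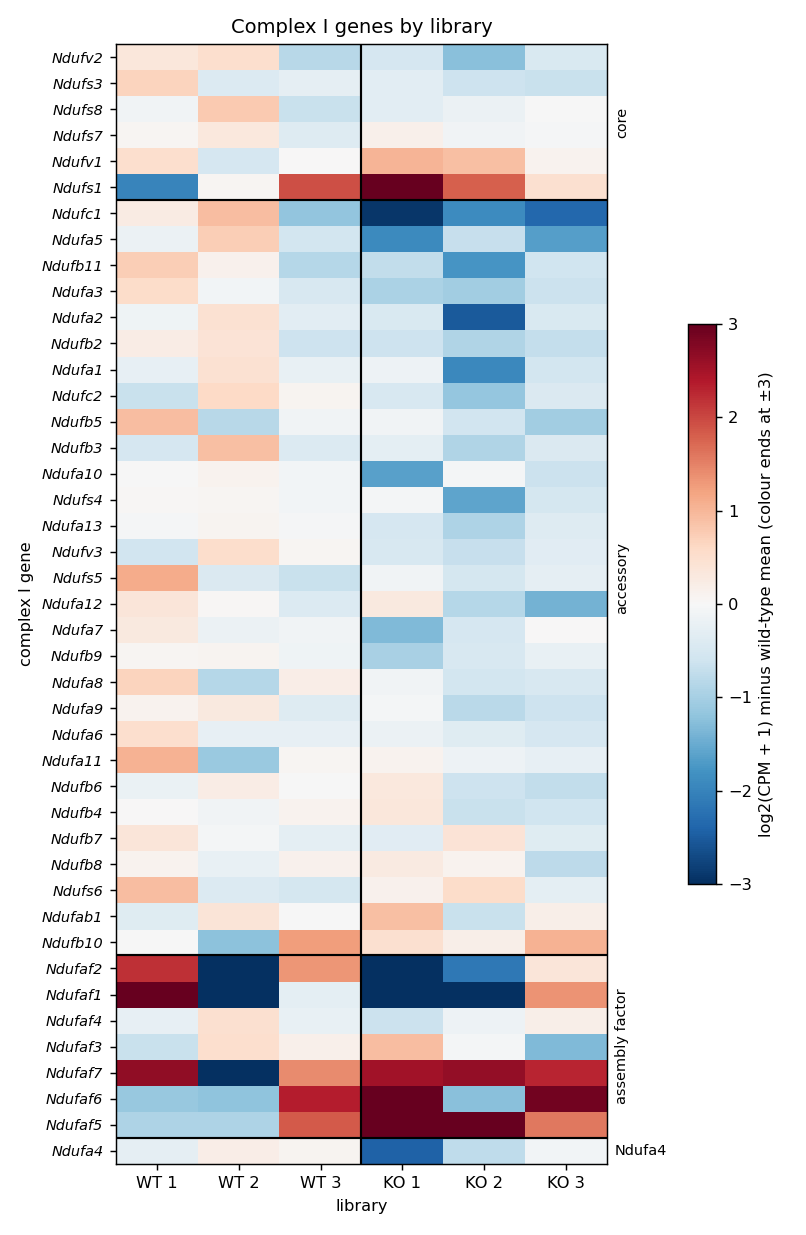
Rows are 43 of the tested complex I genes by group, columns the 6 libraries, and colour the log2(CPM + 1) of each gene minus its wild-type mean. The accessory rows are mostly blue in knockout columns, with a median of -0.18, -0.67 and -0.50 in knockout samples 1 to 3. Their median was 0.10, 0.07 and -0.13 in wild-type samples 1 to 3, so knockout sample 1 lay close to wild-type sample 3. Several assembly factor rows switch between the colour ends from library to library.

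The 29 accessory genes together summed to 2614, 2538 and 2051 CPM in wild-type samples 1 to 3 and to 1769, 1448 and 1616 CPM in knockout samples 1 to 3. All knockout sums lay below all wild-type sums, with means of 2401 ± 306 and 1611 ± 161 CPM (SD, n = 3 each).

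Within the membrane arm, the proximal part had the lowest median of the modules. All 9 of its genes were below 0, with a median log2 fold change of -0.65, and 3 did not overlap between genotypes. Their sum was 918, 865 and 731 CPM in wild type against 512, 463 and 535 CPM in knockout. The distal part had 9 of 10 genes below 0 (median -0.41) and summed to 713 ± 93.3 CPM in the wild type against 536 ± 38.5 CPM in knockout, without overlap. In the matrix arm the N module had 7 of 10 genes below 0 (median -0.54), with overlapping sums of 784 ± 90.3 and 666 ± 154 CPM. The Q module had 5 of 5 below 0 (median -0.29). Both membrane parts hold only accessory genes here, while the N module sums also hold the core genes Ndufs1, Ndufv1 and Ndufv2. These core genes had log2 fold changes of 1.39, 0.67 and -0.81. The modules thus differ in class as well as in place, and the part of each was not tested. Ndufa9, which sits where both arms meet, and Ndufab1, the acyl carrier protein found in both arms, were left out of the modules.

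**Figure D2:**
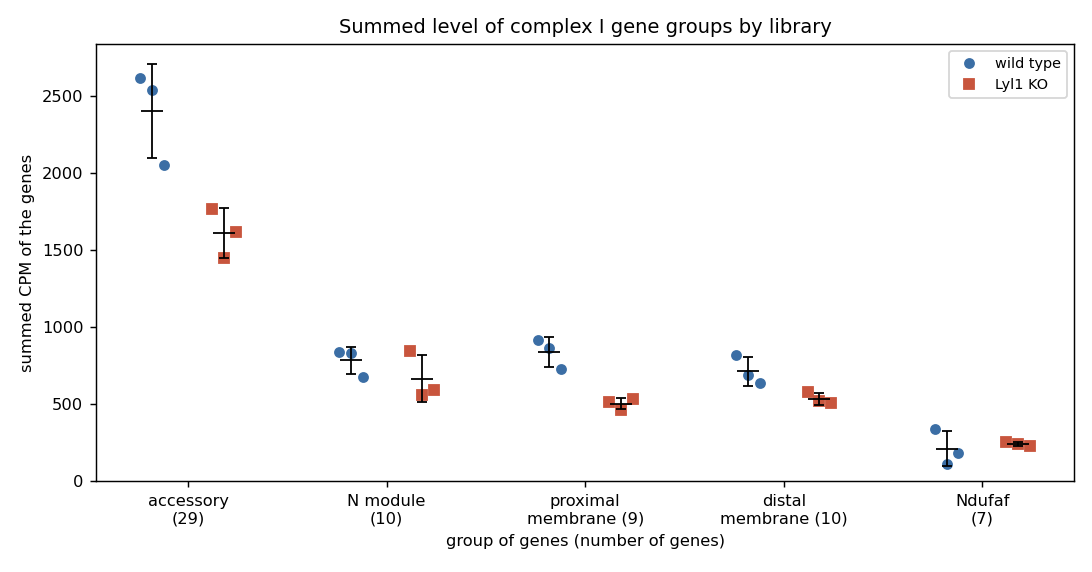
Summed CPM (vertical axis, linear from 0) of 5 groups of complex I genes, with 1 point per library and the mean ± SD of 3 libraries in black. Wild-type and knockout points are apart for the accessory genes (from 2051 up against 1769 and below) and for both membrane parts. They overlap for the assembly factors and for the N module, which includes core genes, while the membrane parts hold only accessory genes.

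Ndufc1 (ENSMUSG00000037152.11, GRCm38 chromosome 3, 51404677 to 51408988, minus strand), a small single-span subunit of the proximal membrane arm, had the lowest fold change of all members. Ndufc1 was at 57.7, 92.4 and 20.6 CPM in wild-type samples 1 to 3, and knockout samples 1 to 3 had 5.50, 12.2 and 8.59 CPM. Every knockout library was below every wild-type library, but wild-type sample 3 stood closer to the knockout values than to wild-type sample 2. The means of 56.9 ± 35.9 and 8.76 ± 3.35 CPM (SD, n = 3 each) are 6.49-fold apart. This gave a log2 fold change of -2.70, standard error 1.09 (edgeR, unadjusted p = 0.0402, adjusted p = 0.9999). It was -0.97 among the 3 libraries with the most genes detected (wild-type sample 3, knockout samples 2 and 3) and -3.78 among the other 3. A 2-sided exact permutation test of the 6 libraries gave p = 0.1, and no smaller p is possible with 3 per group.

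Its membrane-arm partner Ndufc2 was at 102, 249 and 174 CPM in the wild type against 117, 72.5 and 122 CPM in knockout. Here wild-type sample 1 lay within the knockout range, and the log2 fold change was -0.75 (standard error 0.47). Ndufa3 (chromosome 7, 3617373 to 3620327), another small proximal subunit, was at 174, 111 and 83.4 CPM against 60.1, 56.7 and 74.5 CPM. Its genotypes did not overlap, with means of 123 ± 46.2 and 63.7 ± 9.43 CPM and a log2 fold change of -0.95 (standard error 0.51).

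Several members share a short sequence just after the transcription start. RefSeq windows of 300 bases around the transcription start on GRCm38.p6 matched 39 of 45 members. The letters AAGATGGC, a core of the YY1 motif that includes an ATG, stood on either strand of 7 of these 39 (17.9%) and of 3.19% of all 27025 genes with a window. In all 7 the letters read along the gene and began between 22 and 38 bases after the start. They are shown because Ndufc1 and Ndufa3, with the smallest p of the accessory genes, hold them at the same offset of 22. Capitals mark the motif.
Ndufc1: tgcggaacAAGATGGCgccgtccg
Ndufa3: ccaagaacAAGATGGCcgggagta
Ndufa9: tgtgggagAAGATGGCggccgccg
Ndufs7: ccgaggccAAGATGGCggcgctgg

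These lie at chr3:51408918-51408941 (minus strand) for Ndufc1, chr7:3617387-3617410 (plus) for Ndufa3, chr6:126849100-126849123 (minus) for Ndufa9 and chr10:80249465-80249488 (plus) for Ndufs7. Ndufb8, Ndufs4 and Ndufs6 also hold the letters. Log2 fold changes of the 7 genes ran from -2.70 for Ndufc1 to 0.02 for Ndufs6, so the letters stood in genes with the lowest value and in genes near 0.

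Ndufa13, also known as GRIM-19, stands at the proximal membrane arm and had the tightest wild-type values of the non-overlapping members, 105, 113 and 104 CPM. In knockout it was at 75.6, 56.4 and 81.6 CPM, and the log2 fold change was -0.60 (standard error 0.47). Of its exon bases 30.0% lie under Tssk6 on the opposite strand, and since the kit does not mark strand, reads there cannot be assigned to a gene.

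Ndufa5, a subunit of the Q module, was at 55.0, 103 and 41.7 CPM in the wild type against 15.7, 37.8 and 19.1 CPM in knockout. All knockout values were lower, and the means of 66.6 ± 32.4 and 24.2 ± 11.9 CPM gave a log2 fold change of -1.46 (standard error 0.85). Ndufa2, a thioredoxin-fold subunit of the N module, was at 102, 153 and 89.8 CPM against 81.6, 18.8 and 81.0 CPM. Most of its distance came from knockout sample 2, since the other two knockout values lay just under the lowest wild-type one (log2 fold change -0.92, standard error 0.68).

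Ndufb9, an LYR-motif subunit of the distal membrane arm, was the remaining member without overlap and was named after its values were seen. It was at 128, 130 and 112 CPM in the wild type against 62.7, 88.5 and 105 CPM in knockout (log2 fold change -0.53, standard error 0.44). Knockout sample 3 lay close to wild type. Of the exon bases of Ndufb9 19.5% also belong to Gm49356 on the same strand, and of those of Ndufa2 11.5% to Tmco6, so both are uncertain to that extent. For each of these 5 genes too the 2-sided exact permutation test gave p = 0.1, and edgeR gave adjusted p = 0.9999. With 3 per group, any gene without overlap gives this permutation p, so it adds nothing to the absence of overlap.

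**Figure D3:**
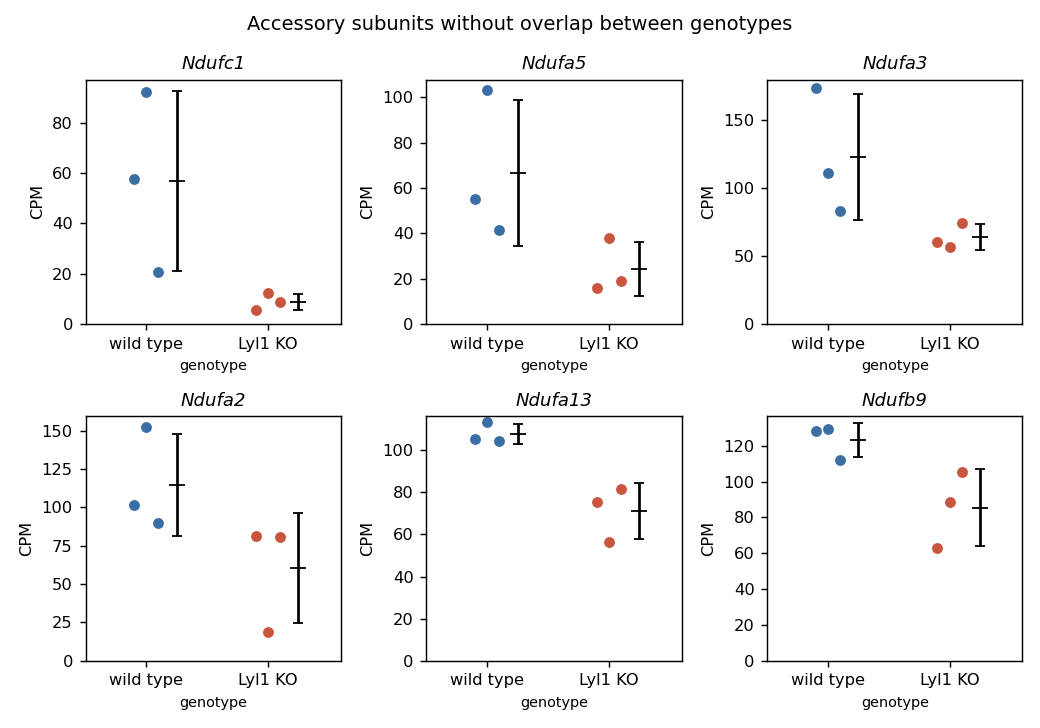
CPM (vertical axes, each linear from 0) of the 6 accessory subunits whose genotypes did not overlap, with 1 point per library and the mean ± SD of 3 libraries in black. The gap between genotypes is narrow for most genes, as for Ndufa2, with 89.8 CPM in wild-type sample 3 and 81.6 CPM in knockout sample 1.

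Other accessory subunits, named for a small p or a high level, overlapped between genotypes. Ndufb11, an X-linked distal subunit, was at 141, 93.2 and 46.1 CPM in the wild type against 50.3, 24.0 and 56.1 CPM in knockout (log2 fold change -1.10, standard error 0.70). Wild-type sample 3 lay below knockout samples 1 and 3. Ndufa9, a subunit that binds NADPH and was the most abundant member in CPM, was at 292, 334 and 207 CPM in wild type against 262, 155 and 176 CPM (log2 fold change -0.49, standard error 0.34). Ndufb8, a distal subunit, was at 122, 96.5 and 123 CPM against 137, 122 and 65.6 CPM, so that knockout held both the highest and the lowest library. Its log2 fold change of -0.07 was above 0 when scaled by upper quartile or library size.

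Of the accessory subunits 3 had a log2 fold change above 0, and all 3 were below their standard error. Ndufb10 of the distal arm (0.28), Ndufab1 (0.25) and Ndufs6, an N-module subunit that binds zinc (0.02), overlapped widely between genotypes. Ndufb10 ran from 15.5 to 90.9 CPM within wild type alone. The remaining 16 accessory genes had log2 fold changes between -0.84 (Ndufb2) and -0.08 (Ndufb7), without a call. Among these Ndufs4, whose loss causes Leigh syndrome and whose knockout is a widely used mouse model of complex I deficiency, was even in wild type at 75.6, 77.6 and 69.7 CPM. In knockout it was at 70.9, 24.0 and 50.8 CPM, so that sample 1 lay within the wild-type range and sample 2 far below it. Exons of Ndufb6 lie partly under Smim27 on the opposite strand. Of the 50-base stretches of Ndufb6 31.6%, of Ndufa13 28.5%, of Ndufs5 21.7%, of Ndufb4 18.3%, of Ndufs3 17.9%, of Ndufa12 17.7% and of Ndufb11 17.5% also stand in transcripts of other genes, overlapping genes or pseudogenes, so these counts are uncertain.

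The 7 core subunits, whose mitochondrial partners are given further on, had log2 fold changes on both sides of 0. Ndufv2, an N-module subunit with an iron-sulfur cluster, was at 199, 223 and 88.2 CPM in the wild type against 112, 65.1 and 114 CPM in knockout (log2 fold change -0.81, standard error 0.49). Its partner Ndufv1, which holds the flavin and the NADH site, lay the other way at 118, 57.2 and 82.5 CPM against 167, 154 and 88.6 CPM (0.67, standard error 0.49). Both pairs of groups overlapped, Ndufv2 through wild-type sample 3 and Ndufv1 through wild-type sample 1 and knockout sample 3.

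Ndufs1, the largest core subunit of the N module and a carrier of iron-sulfur clusters, varied most among structural genes. It was at 5.02, 23.9 and 90.5 CPM in the wild type against 198, 81.8 and 32.6 CPM in knockout. The log2 fold change of 1.39 had a standard error of 1.11, and it was -0.65 among the 3 libraries with the most genes detected. It was 0.52 without knockout sample 1 and 2.85 without wild-type sample 3. Wild-type sample 1, with 57 reads, and knockout sample 1, with 4494, were the lowest and the highest library.

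In the Q module, Ndufs3, a structural core subunit, was at 131, 61.3 and 67.7 CPM against 65.2, 53.1 and 51.2 CPM (-0.62, standard error 0.60), with wild-type sample 1 apart from the rest. Ndufs8, which carries a pair of iron-sulfur clusters toward ubiquinone, was at 126, 235 and 84.8 CPM against 109, 120 and 135 CPM (-0.29, standard error 0.47).

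Ndufs7, the site of the last iron-sulfur cluster before ubiquinone, was the most even core gene. It was at 133, 160 and 97.7 CPM in the wild type against 142, 118 and 124 CPM in knockout, with means of 130 ± 31.1 and 128 ± 12.6 CPM. The log2 fold change of -0.02 with a standard error of 0.39 gives no direction, and its sign turned with upper-quartile and library-size scaling.

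**Figure D4:**
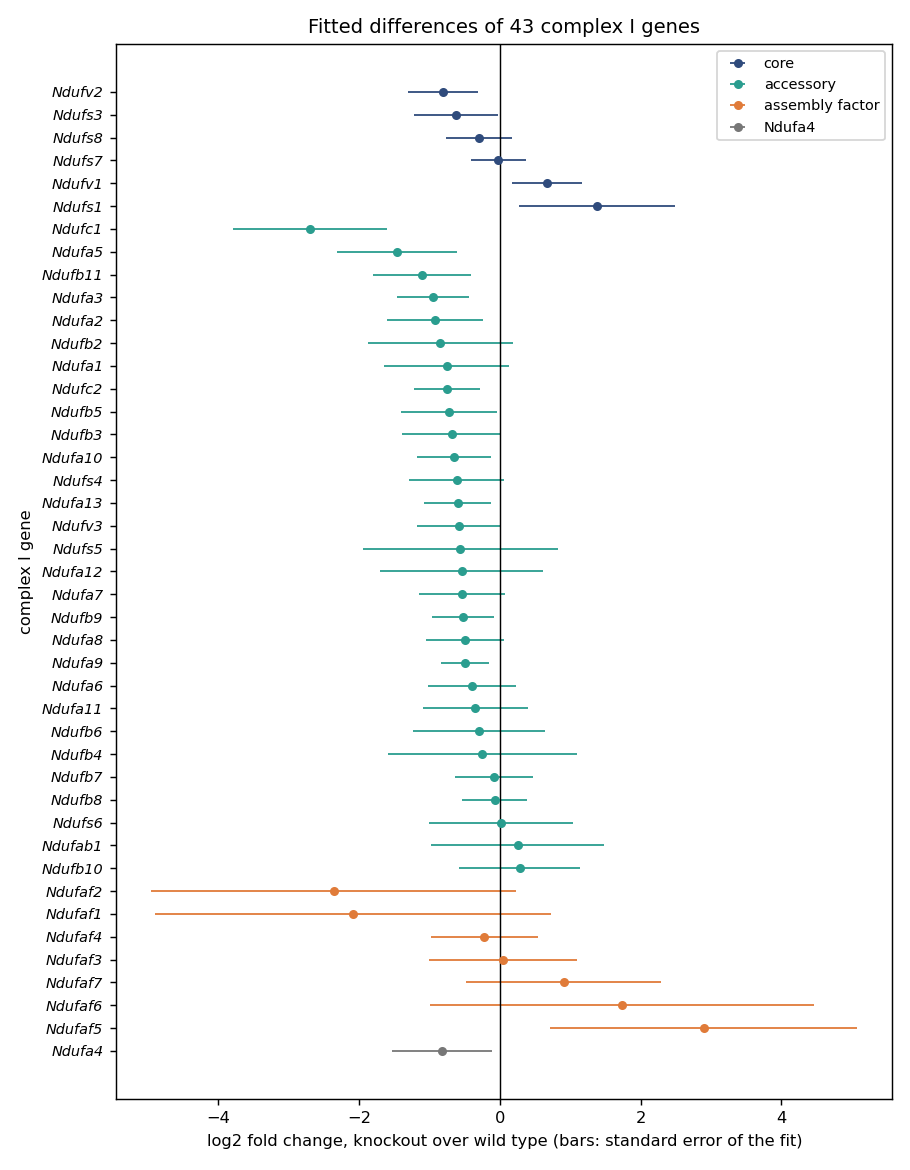
Log2 fold change of knockout over wild type for 43 of the tested genes (horizontal axis, points) with the standard error of the edgeR fit (bars), coloured by group. Accessory points lie mostly left of 0, from -2.70 for Ndufc1 to 0.28 for Ndufb10, core points lie on both sides, and the bars of Ndufaf1, Ndufaf2, Ndufaf5 and Ndufaf6 are the widest.

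Several assembly factors had few or no reads in some libraries. Of the 7 Ndufaf genes, 4 had a library with no more than 3 reads, where 39.5% of all tested genes did. None of the 36 core and accessory genes did, beside 26.6% of tested genes in their range of mean level, 13.3 to 238 CPM. For tested genes in the range of the Ndufaf genes, 8.22 to 96.0 CPM, the share was 38.6%. The median coefficient of variation within wild type was 106% for Ndufaf genes, 32.2% for accessory and 42.9% for core genes, and 87.4% over all tested genes.

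Ndufaf1, which with its partners builds an early membrane intermediate, had 948, 2 and 127 reads in wild-type samples 1 to 3 against 2, 0 and 604 in the knockout ones. Each genotype thus held a library with at least 604 reads and a library with 2 or fewer. For Ndufaf1 the log2 fold change of -2.09 (standard error 2.82) was 1.203 without wild-type sample 1 and -9.19 without knockout sample 3. Ndufaf2, a chaperone of a late step, had 583, 0 and 579 reads in the wild type against 1, 31 and 396 in knockout. Of its exon bases 65.6% lie under B230220B15Rik on the opposite strand, so its reads are uncertain. Ndufaf2 had a log2 fold change of -2.36 (standard error 2.59), which was -1.42 without wild-type sample 1 and -5.01 without knockout sample 3.

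Ndufaf5, a protein of the methyltransferase family that hydroxylates an arginine of Ndufs7, had 1, 2 and 134 reads in the wild type against 387, 527 and 149 in knockout. All knockout libraries were above all wild-type libraries in reads, but not in CPM, where wild-type sample 3 at 6.39 passed knockout sample 3 at 5.18. The log2 fold change of 2.90 had a standard error of 2.18 (edgeR, adjusted p = 0.9999). It was 7.52 without wild-type sample 3 and 1.34 among the 3 libraries with the most genes detected. Ndufaf6, a relative of the squalene and phytoene synthases, had 1, 1 and 236 reads against 477, 0 and 487. Each genotype again held a library with 1 read or none beside one with at least 236. For Ndufaf6 the log2 fold change of 1.73 (standard error 2.73) was 7.56 without wild-type sample 3.

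Ndufaf7, a methyltransferase of the mitochondrial matrix, was at 141 and 59.0 CPM in wild-type samples 1 and 3 and at 0.318 CPM, 8 reads, in wild-type sample 2. In knockout it was even, at 128, 140 and 108 CPM (log2 fold change 0.91, standard error 1.38). Without wild-type sample 2 the log2 fold change was 0.35, and without wild-type sample 1 it was 2.09. Ndufaf3 and Ndufaf4, which bind each other and act on the Q module, had at least 213 reads in every library. Their levels were 32.0 ± 12.4 and 50.3 ± 15.8 CPM in the wild type against 33.1 ± 23.9 and 43.3 ± 12.5 CPM in knockout, and the spread between libraries exceeded the difference for both.

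The exact palindrome bound by the nuclear respiratory factor NRF1 stood in 3 of 39 members (7.69%) and in 1.07% of all genes. It is shown for the assembly factors because one of the pair, Ndufaf4, had at least 465 reads in every library and Ndufaf5 had 1 and 2 reads in wild-type samples 1 and 2. Capitals mark the palindrome.
Ndufaf4: agatgtctGCGCATGCGCctgtgcgg
Ndufaf5: tcccgttgGCGCATGCGCctaataga

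The positions are chr4:24897962-24897987 (plus strand) for Ndufaf4, where the letters begin 113 bases before the start, and chr2:140170654-140170679 (plus) for Ndufaf5, where they begin 16 bases after it. The third member was the accessory gene Ndufa11. With any base in place of its A, 9 members and 5.19% of all genes matched. The SP motif GGGCGG was in 51.3% of members and 38.2% of all genes, CCAAT in 33.3% and 41.1%, AAGGTCA of the estrogen-related receptors in 7.69% and 5.38%, and the ETS motif CCGGAAGT in 2.56% and 4.31%. The E-boxes CAGCTG and CAGATG, of the kind bound by bHLH factors, were in 10.3% and 15.4% of members and in 18.3% and 19.2% of all genes. A match of letters is no evidence of binding.

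Wild-type sample 3 and knockout sample 3, with the highest numbers of detected genes (15652 and 15531), had more than 3 reads of all 7 Ndufaf genes. Of the other libraries, wild-type sample 2 had 3 reads or fewer of 4 of them, and wild-type sample 1 and knockout samples 1 and 2 of 2 each. Both genotypes thus held libraries of either kind. The eighth factor of the family, Ndufaf8, is listed in the table under its older symbol 1810043H04Rik, which the rule does not take. Ndufaf8 had 170, 49 and 450 reads in the wild type against 409, 241 and 321 in knockout.

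**Figure D5:**
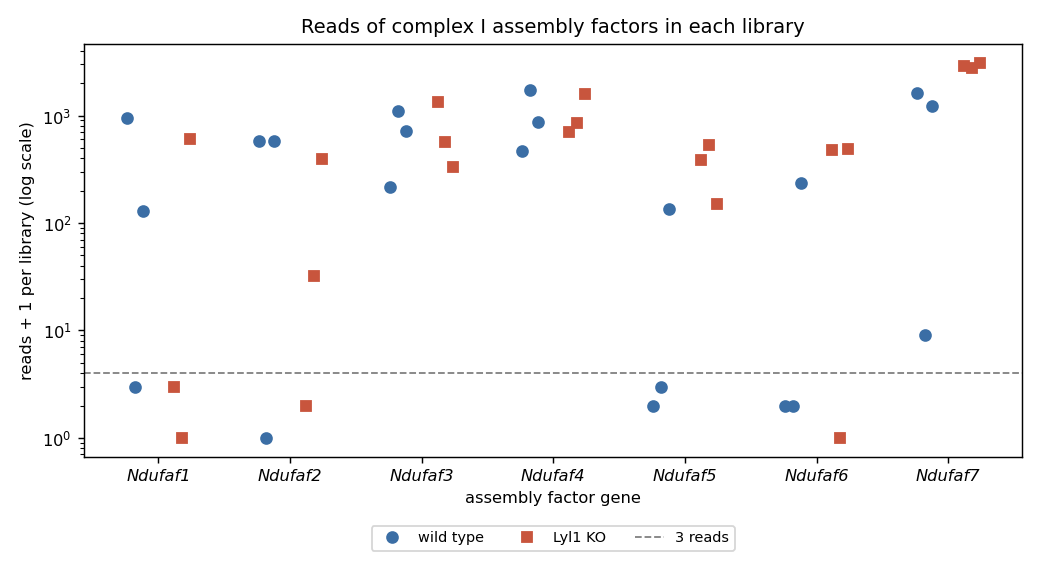
Reads + 1 of the 7 assembly factor genes in each library (log axis, 1 point per library), with a dashed line at 3 reads. Ndufaf1, Ndufaf2, Ndufaf5 and Ndufaf6 have libraries at or below the line beside libraries far above it, in both genotypes for all but Ndufaf5.

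Ndufa4 was at 78.9, 110 and 101 CPM in the wild type against 16.9, 56.2 and 90.9 CPM in knockout. Knockout sample 3 lay within the wild-type range and knockout sample 1 well below it, with a log2 fold change of -0.82 (standard error 0.71). Its paralog Ndufa4l2, a target of hypoxia signalling, is listed at 0 reads in every library, which allows at most 0.264 CPM in the shallowest one (3 reads, counting error only).

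Levels between genes were compared per kb of annotated exon, since the libraries hold fragments of whole transcripts. The 29 accessory genes had a median of 39.3 CPM per kb, the 7 core genes 58.3 and the 7 Ndufaf genes 12.0, beside 6.96 over all tested genes. Highest were Ndufc2 (185 CPM per kb), Ndufa2 (153) and Ndufa9 (113), and Ndufs8 (104) led the core genes. Ndufab1 at 2.78 and Ndufb2 at 4.90 were lowest among accessory genes, with long annotated exon unions of 6883 and 5628 bases. These levels are means over all 6 libraries, and the order differs by genotype for the variable genes. Ndufs1 was at 4.92 CPM per kb in wild type and 12.9 in knockout, and Ndufaf5 at 1.22 and 9.13.

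Annotated exon length moved with the fold change across the whole table. Of the tested genes with under 1 kb of exon 62.3% were below 0 (median log2 fold change -0.32), of those with 1 to 2 kb 63.2% (-0.30), of those with 2 to 4 kb 53.4% (-0.08) and of those over 4 kb 46.6% (0.09). Complex I genes are short, with 20 of the 29 accessory genes under 2 kb. Accessory genes were at a median of -0.69 under 1 kb (9 genes), -0.53 at 1 to 2 kb (11), -0.58 at 2 to 4 kb (5) and -0.40 above (4). Each median was lower than that of all tested genes in its class, but the classes over 2 kb hold few accessory genes. Of the 4 over 4 kb, 3 were below 0. The part of length in the lower accessory levels was not tested beyond these values.

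Knockout sample 2 was the lowest of the 6 libraries for 17 of 44 tested members, and wild-type samples 1 and 2 were the highest for 14 and 18. Xist, the X-inactivation transcript of female cells, reached 349 CPM in knockout sample 1 and 412 CPM in knockout sample 3, and no other library exceeded 1.41 CPM. Knockout sample 2, without Xist like the wild-type libraries, had the lowest accessory median of the 3 knockout libraries (-0.67). The 5 erythroid markers summed to 227 and 65.2 CPM in knockout samples 1 and 2 and to 0.243 CPM in knockout sample 3, where the accessory median was -0.50. The part of sex and of erythroid RNA in the results was not tested. Among the 3 libraries with the most genes detected, 33 of 44 members were below 0 (median -0.36), beside a median of 0.10 over all genes tested there. Among the 3 with the fewest, 31 members were below 0 (median -0.45), and all genes tested there were also shifted down (median -0.25).

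Subunits encoded by the mitochondrial genome overlapped between genotypes. Of 6 tested mt-Nd genes 5 were below 0 and 1 above (median log2 fold change -0.26), and edgeR called 0. The gene with the smallest p, mt-Nd4, was at 411, 111 and 140 CPM in the wild type against 193, 122 and 122 CPM in knockout (-0.60, standard error 0.55). Wild-type sample 1 was the highest of all libraries for it and for mt-Nd1 (897 CPM) and mt-Nd2 (213 CPM), and mt-Nd4l had 0 reads in every library.

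Assembly factors of complex I with other names were split, with 5 of 10 tested genes below 0 and 5 above, 0 called, and 5 with 3 reads or fewer in a library. Timmdc1, a membrane-arm factor, had the smallest p of this list, with 3, 0 and 67 reads in the wild type against 344, 11 and 45 in knockout. Complex II, which feeds ubiquinone from succinate, had 1 of 4 subunits below 0 and 3 above. Sdha and Sdhb, among those above (0.19 and 0.26, standard errors 1.05 and 0.62), had 66 and 503 reads in wild-type sample 1. Sdha was at 5.82, 350 and 231 CPM in the wild type against 165, 249 and 257 CPM in knockout. Sdhb was at 44.3, 294 and 257 CPM against 224, 269 and 217 CPM, so both overlapped. The subunit below 0, Sdhd, a membrane anchor of complex II, was at 121, 147 and 177 CPM in the wild type. In knockout Sdhd was at 96.5, 40.7 and 105 CPM, without overlap (log2 fold change -0.88, standard error 0.50, edgeR adjusted p = 0.9999).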

How the data were processed

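Gene counts of 6 libraries were used as deposited. Per the labels' protocols, RNA of about 1000 sorted cells was amplified with a SMARTer Ultra Low kit over 14 or 15 PCR cycles, made into Nextera XT libraries and read over 50 cycles, without strand or molecular identifiers, so counting limits cover counting error only. GRCm38, featureCounts 1.5.1, Subread, STAR 2.5.2b, limma 3.28.21 and CASAVA 1.8.2 are listed, without roles, in the submitters' processing notes. The 92 spike-in rows were left out.

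Counts were tested with edgeR 4.0.16 in R 4.3.3 (quasi-likelihood, TMM scaling, filterByExpr with a minimum count of 10 and total of 15), with Benjamini-Hochberg adjustment over 10394 genes and a threshold of 0.05. The common biological coefficient of variation was 1.27. CPM was scaled by TMM, and deviations used log2(CPM + 1). Genotypes were called not overlapping where all CPM of one lay beyond all of the other. The floor was 3 reads. Exon lengths and positions came from GENCODE M21 on GRCm38. The test was checked on simulated counts. No libraries were duplicates.

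A core gene counts in its groups but is not reported here. Named were the other core and all Ndufaf genes, Ndufa4 and Ndufa4l2, the 8 accessory genes with the smallest p, the 3 with the highest CPM, and the smallest p of each related list. Ndufb9, Ndufs4, Ndufs6, Ndufb10, Ndufab1, Ndufb2, Ndufb7, mt-Nd1, mt-Nd2, Sdha, Sdhb, Nrf1, Yy1 and Nfs1 were added after their values were seen. Members and lists were chosen with earlier results of these data known. Alternatives were other scalings, no filter, DESeq2 1.42.0, a replicate block, detected genes as covariate, libraries split by detected genes and leaving out each library.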

Additional observations from a re-analysis of the deposited data

How the results depend on the processing

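Members called numbered 0 in all 15 alternatives. Genes called in the whole table numbered 8 with no filter on low counts and 52 with DESeq2, against 0, and the cause was not tested. Between 31 and 36 members had a log2 fold change below 0, and the median of all members ran from -0.64 to -0.35. The median of all tested genes, -0.03 with TMM, was 0.09 with upper-quartile scaling (32 members below 0), 0.18 with the replicate block, 0.10 among the 3 libraries with the most genes and -0.25 among the 3 with the fewest. Members without overlap, 6 and all lower with TMM, were 13.6% of those tested, beside 11.2% of all tested genes in either direction. With upper-quartile scaling they numbered 4, all lower (9.09%, beside 11.0% of all tested genes). In the lower direction alone the shares of all tested genes were 5.19% with TMM and 4.51% with upper-quartile scaling. Fewer samples overlap less often. Among the 3 libraries with the most genes 34 members did not overlap, 27 lower and 7 higher (77.3%, beside 60.0% of all tested genes). Among the 3 with the fewest there were 28, 17 lower and 11 higher (63.6% beside 61.9%). Without 1 library there were 9 to 15, of which 0 to 3 were higher (20.5% to 34.1%, beside 18.5% to 29.5%). Without 1 library the assembly factor median ran from -0.025 (without knockout sample 1) to 1.18 (without wild-type sample 1), and the core median from -0.37 (without knockout sample 3) to 0.18 (without wild-type sample 2).

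Of 495 gene values under an alternative, 455 kept their sign and 40 changed it, and 19 of 33 genes kept their sign in all. None of these genes passed the threshold in the main fit or in an alternative, so this is a count of signs alone. The log2 fold change of Ndufs7 became 0.14 with upper-quartile scaling, 0.10 with library size alone, 0.026 with no filter and 0.11 with detected genes as covariate. Ndufb8 became 0.034 and 0.023 with those scalings, and Ndufs6 -0.074 with RLE scaling and -0.073 with DESeq2. Among the 3 libraries with the most genes, values were -0.65 for Ndufs1, 0.32 for Ndufs7, 0.59 for Ndufs8, 0.029 for Ndufv2, 0.79 for Ndufaf1, -0.73 for Ndufaf3, 0.27 for Ndufaf4, -0.42 for Ndufaf6, -1.58 for Timmdc1, -0.58 for Ndufb10 and -0.17 for Ndufab1. Among the 3 with the fewest they were 0.33 for Ndufb8 and -0.26 for Ndufs6. Without 1 library, values ran from -0.19 to 0.18 for Ndufs7, -0.56 to 0.23 for Ndufs8, -9.19 to 1.203 for Ndufaf1, -0.66 to 0.45 for Ndufaf3, -0.44 to 0.093 for Ndufaf4, -0.28 to 0.19 for Ndufb8, -0.23 to 0.69 for Ndufs6, -0.12 to 1.15 for Ndufb10, -0.23 to 0.59 for Ndufab1, -0.89 to 0.23 for mt-Nd4 and -0.12 to 5.47 for Timmdc1. The causes were not tested. Where a genotype had 1 library, it was assumed to vary like the other.

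Replicate numbers were not taken to pair the samples, since deviations of same-numbered samples correlated over genes at 0.014, -0.0029 and 0.033. Samples numbered 1 and 3 correlated best with their own number, and neither sample numbered 2 did. With the replicate block 0 genes were called, 35 members were below 0 with a median of -0.51, Ndufaf3 became -0.21 and Ndufs7 0.00091.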

Other observations

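The iron-sulfur cluster machinery, which makes the cofactors of the matrix arm, was also mostly lower in knockout, with 8 of 10 tested genes below 0 and 2 above (median log2 fold change -0.67) and 0 called. Nfu1, a late carrier of the clusters, had the smallest p of the list at 234, 107 and 64.4 CPM in the wild type against 29.4, 9.96 and 73.6 CPM in knockout (-1.84, standard error 0.86; edgeR, adjusted p = 0.9999), with knockout sample 3 inside the wild-type range. It was -1.18 without wild-type sample 1 and -2.78 without knockout sample 3. Nfs1, the cysteine desulfurase that supplies the sulfur, was named after its values were seen. It had 3462, 2682 and 1144 reads in the wild type against 5, 788 and 743 in knockout, without overlap, and wild-type sample 1 was the highest library for both genes. The log2 fold change of Nfs1, -2.82 (standard error 1.45), was -1.86 without wild-type sample 1 and -0.72 among the 3 libraries with the most genes detected.

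Regulators of mitochondrial genes had 3 of 6 tested genes below 0 and 3 above, with 0 called. Nrf1 and Gabpa were higher without overlap, as were 5.97% of all tested genes. Nrf1 was at 24.4, 37.3 and 43.6 CPM in the wild type against 49.4, 50.7 and 53.7 CPM in knockout (log2 fold change 0.55, standard error 0.78). Yy1 overlapped between genotypes (-0.24, standard error 1.78). Gabpa, an ETS factor of respiratory genes, had 2, 805 and 886 reads in the wild type against 1460, 854 and 1706 in knockout, and its genotypes did not overlap in CPM (24.8 ± 21.9 and 55.7 ± 10.9 CPM, log2 fold change 1.17, standard error 1.47). Without wild-type sample 1, which had 2 reads, the log2 fold change was 0.60, without wild-type sample 3 it was 1.79, and among the 3 libraries with the most genes detected it was 0.29. Ppargc1a, the coactivator PGC-1alpha, and Ppargc1b were too low to be tested.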
